A study of Mus musculus with 5 samples.

Results

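Ucp1, Cidea and Cox8b, 3 genes that mark brown fat cells, were followed in lungs of bleomycin-treated 129svJ mice. The genes were taken by symbol from the array's annotation, were chosen because of the ratios given here, and make up 3 of the 9039 genes with a symbol that were measured. Each of the 5 arrays carried amplified RNA of whole lung from 1 mouse given bleomycin, a DNA-cleaving drug used to injure the lung, in channel 1. Channel 2 held 1 common pool of amplified lung RNA from control mice of that inbred strain. Bleomycin mice 1 to 5 are the replicates of the only group, and the pool stands for all controls. The 5 numbered mice are counted as separate animals, although the labels do not exclude repeat arrays of the same animal. The labels used here state no dose, route, time, age, sex or number of pooled mice.

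Values are log2 ratios of the channels with each array's median set to 0. The dyes are not given, so which of mouse and pool is higher on the positive side is not settled, and only the side of 0 is stated. The base of the logarithm is not given either, and folds assume base 2. Arrays 1 to 5 held values for 11350 to 12083 of 17280 features. In the limma fit over 10081 genes and unnamed features, 5002 (49.6%) had a mean that differed from 0 at an adjusted p under 0.05, with 23.9% of all below 0 and 25.8% above. That test treats the pool as fixed. A stricter test gives the pool the same spread as a mouse, as if it were a single control animal, and is called the pool-spread test here. By it 513 (5.09%) passed, with 2.11% of all below 0 and 2.98% above.

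Brown fat burns fuel to make heat. Ucp1, uncoupling protein 1, sits in the inner mitochondrial membrane of brown and beige fat cells and lets protons flow back without making ATP. Cidea coats lipid droplets and takes part in their fusion and in the control of lipid release. Cox8b is the heart and muscle form of subunit 8 of cytochrome c oxidase, the last enzyme of the respiratory chain, and brown fat carries it as well. In mice, brown fat lies between the shoulder blades and also along the large vessels of the chest, and skeletal muscle and heart express Cox8b without Ucp1.

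The 3 genes did not share a pattern: Ucp1 and Cidea were above 0 in every mouse, and Cox8b lay on both sides. Ucp1 had log2 ratios of 2.55, 2.25, 2.08, 1.68 and 1.34 in mice 1 to 5. All mice were far above 0, with mouse 1 highest and mouse 5 lowest. The mean was 1.98 ± 0.48 (SD, n = 5 mice), a 3.95-fold difference between mouse and pool. Among the genes measured on each array it ranked 10 of 9615 from the top in mouse 1, 26 of 9586 in mouse 2, 37 of 9766 in mouse 3, 101 of 9867 in mouse 4 and 128 of 9700 in mouse 5. By its mean, 27 of the 10081 genes and unnamed features, Ucp1 included, stood as high or higher. Its spread between mice was wider than that of 96.3% of genes.

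Cidea, the lipid droplet protein, had log2 ratios of 1.21, 0.93, 1.08, 0.98 and 0.78 in mice 1 to 5. The mice lay close together, and mouse 1 was again highest and mouse 5 lowest. The mean was 1.00 ± 0.16 (SD, n = 5 mice), a 1.997-fold difference, and 329 genes and unnamed features, Cidea included, had a mean as high or higher. Its spread was wider than that of 51.8% of genes, near the middle. In every mouse Ucp1 stood above Cidea, by 0.55 in mouse 5 to 1.34 in mouse 1 on the log2 scale. A difference of log ratios between genes compares their mouse-to-pool ratios, not their levels.

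Cox8b, the oxidase subunit, had log2 ratios of −1.91, −0.57, 1.16, 1.22 and −0.04 in mice 1 to 5. Mice 3 and 4 were above 0, mice 1 and 2 below it and mouse 5 near it. The mean was −0.029 ± 1.30 (SD, n = 5 mice). It turned to 0.44 without mouse 1 and was −0.34 without mouse 4, so its side of 0 rested on single mice. On the array of mouse 1, 0.738% of genes were lower than Cox8b, while on that of mouse 4, 97.1% were lower. Its spread was wider than that of 99.8% of genes. Ucp1 exceeded Cox8b by 4.46 on the log2 scale in mouse 1 and by 0.46 in mouse 4.

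In the limma fit, 2 of the 3 genes, Ucp1 and Cidea, were past the threshold, beside 49.6% of all genes, and the same 2 were past it in the pool-spread test, beside 5.09% (2.11% below 0 and 2.98% above). The genes were chosen with these ratios known, so nothing is read from those counts and no p is given for them. In whole lung, a difference in the number of cells of a type and a difference in RNA per cell cannot be told apart.

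**Figure D1:**
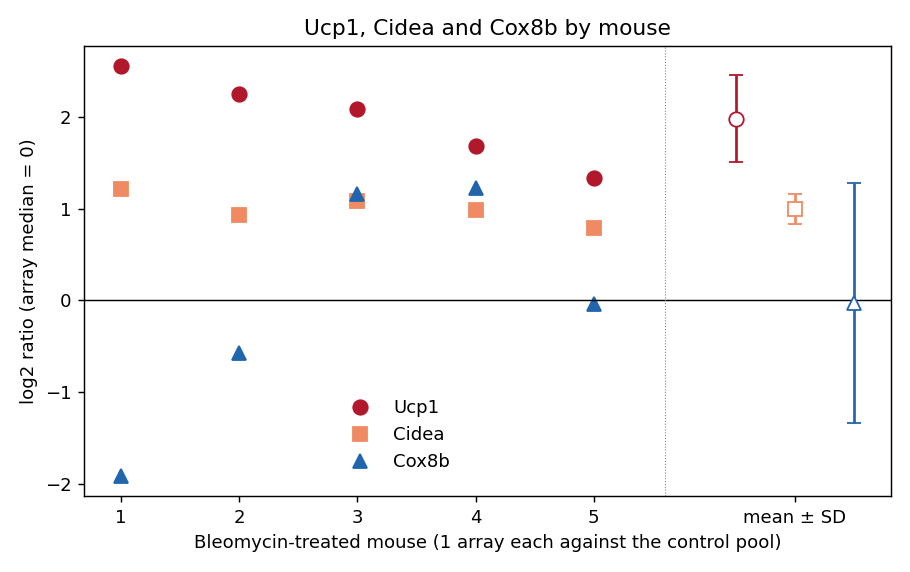
Log2 ratios of Ucp1, Cidea and Cox8b (vertical axis, array median at 0) in each of the 5 bleomycin-treated mice against the control pool, with means and SD (n = 5) as open symbols at the right. Ucp1 lies between 1.34 and 2.55 and Cidea between 0.78 and 1.21, while Cox8b runs between −1.91 in mouse 1 and 1.22 in mouse 4.

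The stretch just before the start of transcription is shown for Ucp1 and Cox8b, whose patterns across mice differ, and for Cox7a1, the muscle-type oxidase subunit whose pattern lay close to that of Cox8b (values follow). Each is the 250 bases upstream of the gene's start in RefSeq, build GRCm38.p6, 5′ to 3′ on the gene's strand. The Ucp1 stretch is chr8:83290098-83290347 on the plus strand, that of Cox8b is chr7:140900447-140900696 on the minus strand, and that of Cox7a1 is chr7:30183921-30184170 on the plus strand. Capitals mark matches, on either strand, to AGGTCA (a core motif of nuclear receptors), TGACGTCA (the full cyclic AMP response element), TGACG (a core of that element, contained in it) and CANNTG (an E-box).
Ucp1: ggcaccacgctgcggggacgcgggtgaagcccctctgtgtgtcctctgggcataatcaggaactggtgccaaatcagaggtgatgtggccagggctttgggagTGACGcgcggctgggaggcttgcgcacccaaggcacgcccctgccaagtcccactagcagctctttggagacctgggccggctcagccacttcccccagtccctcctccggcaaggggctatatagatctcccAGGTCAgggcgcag
Cox8b: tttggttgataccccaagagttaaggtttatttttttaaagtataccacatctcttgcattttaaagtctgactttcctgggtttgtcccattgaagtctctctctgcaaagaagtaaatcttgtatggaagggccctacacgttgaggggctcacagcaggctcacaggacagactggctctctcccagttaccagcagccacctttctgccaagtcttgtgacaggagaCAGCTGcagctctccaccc
Cox7a1: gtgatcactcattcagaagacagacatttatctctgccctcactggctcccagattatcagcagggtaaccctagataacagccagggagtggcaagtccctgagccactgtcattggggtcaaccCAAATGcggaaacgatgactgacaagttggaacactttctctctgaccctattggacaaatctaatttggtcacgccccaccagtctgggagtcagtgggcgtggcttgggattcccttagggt
The Ucp1 stretch held 1 AGGTCA, which starts at base −14 from the gene's start, and 1 TGACG, at base −147, with 0 E-boxes. The stretches of Cox8b and Cox7a1 each held 1 E-box, at base −19 and at base −124, and 0 of the other motifs. Of 32851 RefSeq promoter stretches, each likewise cut to the 250 bases upstream, 14.0% held AGGTCA, 17.8% TGACG, 1.55% TGACGTCA and 66.2% an E-box. These letters are a description, not sites of binding. GC content was 64.8% for Ucp1, 47.2% for Cox8b and 51.2% for Cox7a1, beside a median of 52.4% over all stretches.

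Several oxidase subunits exist in a heart and muscle form and in a form found in most tissues. Both forms are given here side by side, and no difference between forms was tested. Cox8a, the ubiquitous counterpart of Cox8b, had log2 ratios of −0.59, −0.49, −0.60, −0.79 and −0.79 in mice 1 to 5. All mice lay below 0 within a narrow range, at a mean of −0.65 ± 0.14 (adjusted p = 0.000286, limma). Cox8b minus Cox8a was −1.32, −0.09, 1.75, 2.02 and 0.75 in mice 1 to 5, so Cox8b was the lower of the pair in mice 1 and 2 and the higher in mice 3, 4 and 5.

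Cox7a1, the heart and muscle form of subunit 7a, had ratios of −0.92, −0.10, 0.73, 0.70 and −0.10 in mice 1 to 5 (mean 0.065 ± 0.68, adjusted p = 0.834). As with Cox8b, mouse 1 was lowest and mice 3 and 4 were highest. Cox6a2, the heart and muscle form of subunit 6a, had −0.70, −0.24, 0.24 and 0.07 in mice 1 to 4 and no value in mouse 5 (mean −0.16, adjusted p = 0.432), again with mouse 1 lowest and mouse 3 highest. Its ubiquitous counterpart Cox6a1 lay between −0.74 and −1.05 in every mouse (mean −0.90 ± 0.14, adjusted p = 8.42e-05), with the lowest value in mouse 5. Cox7a2, the counterpart of Cox7a1, had values in mice 2 and 4 only, −0.88 and −0.39, and was not tested. Of subunit 4, the ubiquitous Cox4i1 averaged −0.46 ± 0.37 (adjusted p = 0.0246, but 0.0759 without mouse 2 and 0.0605 without mouse 5). Cox4i2, the form of lung and of oxygen sensing, averaged 0.086 ± 0.084 (adjusted p = 0.21).

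Of 16 measured subunits and assembly factors of the enzyme besides Cox8b, 9 were past the threshold below 0, 0 above and 7 were not past it, at a median of −0.42 against −0.007 for all genes. The 9 below 0 are 56.2% of the list, beside 23.9% of all genes below 0 and 49.6% on either side of 0. With the plain one-sample test 4 were past it. Farthest below were Cox6c at −1.50 ± 0.20 (adjusted p = 2.97e-05) and Cox5a at −1.48 ± 0.44 (adjusted p = 0.000374). Both are subunits encoded in the nucleus. Cox7b, another small subunit, averaged −1.16 ± 1.10 with −3.04 in mouse 3 (adjusted p = 0.0372, but 0.082 without mouse 1 and 0.0711 without mouse 5). In the pool-spread test, Cox6c and Cox6a1 were past the threshold.

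**Figure D2:**
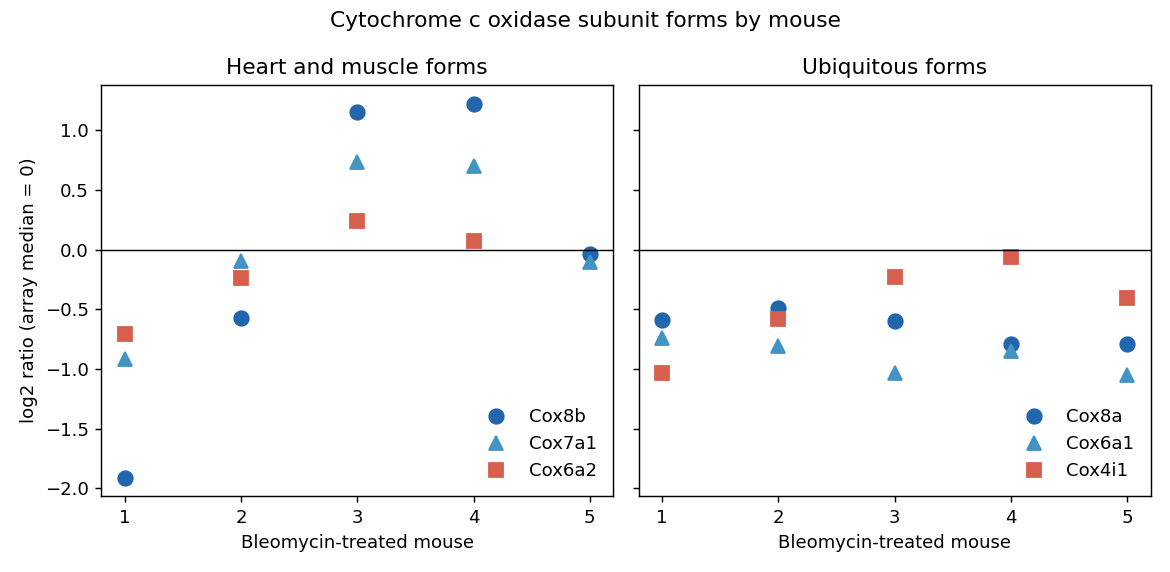
Log2 ratios by mouse of cytochrome c oxidase subunit forms (vertical axis, array median at 0), with the heart and muscle forms Cox8b, Cox7a1 and Cox6a2 on the left and the ubiquitous forms Cox8a, Cox6a1 and Cox4i1 on the right; each point is 1 array. On the left mouse 1 is lowest for all 3 genes and mice 3 and 4 are above 0, and on the right all points lie below 0.

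Most other measured genes known from brown and beige fat were not past the threshold, and all lay nearer to 0 than Ucp1. Of 36 listed, 5 were not analysed here for want of a feature under their symbol, among them the beta-3 adrenergic receptor gene Adrb3, 4 had no value on any array and 5 had values on fewer than 4 arrays. Of the 22 measured, 3 were past the threshold below 0, 4 above and 15 were not past it, or 31.8% beside 49.6% of all genes, and the list's median was 0.017. Those without any value included Prdm16, the regulator that sets brown fat identity, Elovl3, a fatty acid elongase of brown fat, and Cpt1b, the muscle and brown fat enzyme that brings fatty acids into mitochondria.

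The coactivator Ppargc1a, which drives mitochondrial biogenesis and Ucp1 transcription, had ratios of 0.25, 0.14, 0.09, −0.08 and 0.05 in mice 1 to 5. All were near 0 (mean 0.09 ± 0.12, adjusted p = 0.249), while Ucp1 was at least 1.34 in each of these mice. Dio2, the deiodinase that activates thyroid hormone inside brown fat cells, had −0.96, −0.48, −1.18, 0.09 and 0.08 (mean −0.49 ± 0.58, adjusted p = 0.0786, but 0.0486 without mouse 4). The nuclear receptor Ppara, a regulator of fatty acid oxidation, averaged −0.14 ± 0.14 (adjusted p = 0.106). Fabp3, the fatty acid binding protein of heart and brown fat, had −0.75, 1.10, 0.96 and 0.31 in mice 2 to 5 and no value in mouse 1 (mean 0.41 ± 0.85, adjusted p = 0.303, but 0.02 without mouse 2). In Fabp3, as in Cox8b, mice 3 and 4 were highest.

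Past the threshold above 0 were the fatty acid transporter Slc27a1 at 0.59 ± 0.29 (adjusted p = 0.00387), the creatine kinase Ckb at 0.60 ± 0.24 on 4 arrays (adjusted p = 0.00388), the thioesterase Acot11 at 0.40 ± 0.17 (adjusted p = 0.00387) and the mitochondrial DNA factor Tfam at 0.29 ± 0.18 on 4 arrays (adjusted p = 0.0311). Below 0 were Esrra, a nuclear receptor of mitochondrial genes, at −0.88 ± 0.12 (adjusted p = 7.29e-05), Zic1, a transcription factor that marks classical brown fat, at −0.48 ± 0.15 (adjusted p = 0.00116), and Tnfrsf9, a surface marker of beige precursors and of activated T cells. Tnfrsf9 averaged −0.22 ± 0.07 over its features (adjusted p = 0.0112) and −0.10 on its first feature alone (adjusted p = 0.317). Esrra was the 1 gene of this list that passed the pool-spread test.

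**Figure D3:**
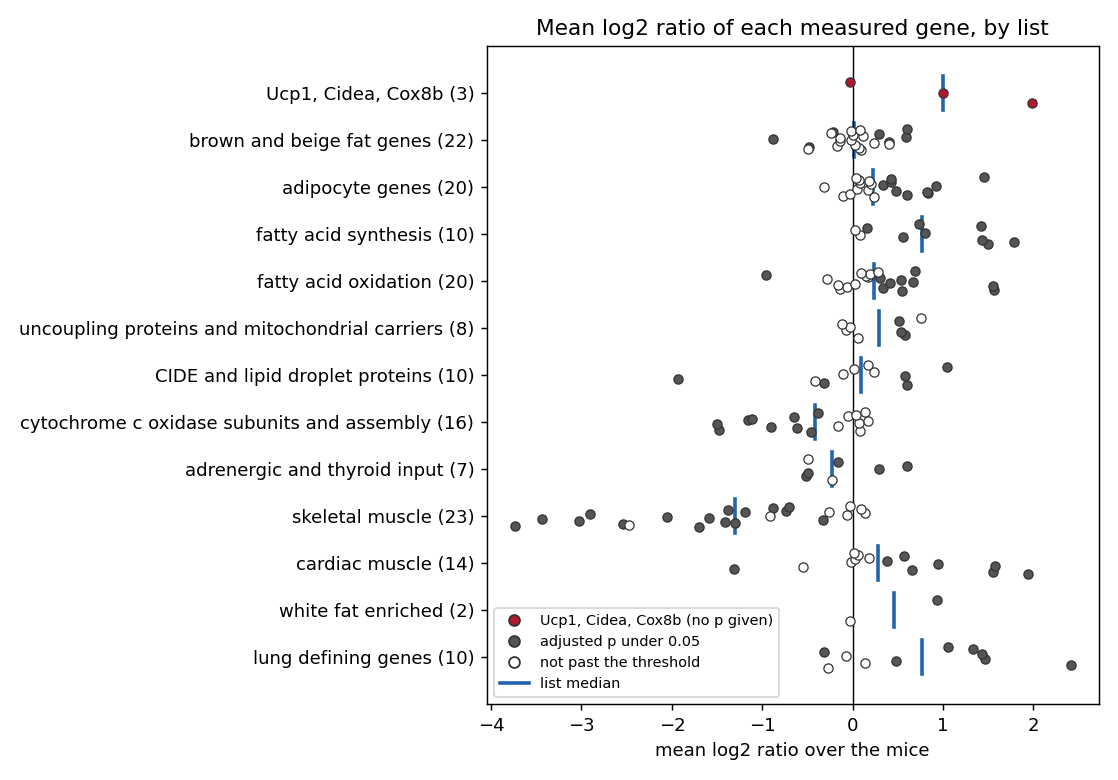
Mean log2 ratio over the mice (horizontal axis) of every measured gene in each list, with the number measured in brackets; filled grey points had an adjusted p under 0.05, open points did not, red points are Ucp1, Cidea and Cox8b, whose p-values are not given, and blue bars are list medians. Ucp1 at 1.98 lies to the right of all 22 other brown and beige fat genes, which run between −0.88 and 0.60.

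The genes of fat cells in general that passed the test lay on the side of 0 where Ucp1 and Cidea lay. Of 20 measured adipocyte genes, 9 were past the threshold above 0, 0 below and 11 were not past it, at a median of 0.22. That is 45% of the list, beside 25.8% of all genes above 0 and 49.6% on either side of 0. In the pool-spread test 0 adipocyte genes were past it. The fatty acid transporter Cd36, which endothelium and macrophages also carry, averaged 1.46 ± 0.51 (adjusted p = 0.000712). Hormone-sensitive lipase, Lipe, averaged 0.93 ± 0.27 (adjusted p = 0.000444). Pparg, the master regulator of fat cell formation, which lung macrophages and epithelium also express, averaged 0.48 ± 0.35 (adjusted p = 0.0175, but 0.0562 without mouse 3). Carbonic anhydrase 3, Car3, abundant in fat and slow muscle, averaged 0.83 ± 0.39 over its 2 features (adjusted p = 0.00266), which stood apart at 1.79 and −0.12.

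Adipoq, a fat cell gene that encodes the hormone adiponectin, had ratios of −0.07, −0.22, 0.77, 1.02 and −0.32 in mice 1 to 5. Mice 3 and 4 were highest, as for Cox8b, and mice 1, 2 and 5 lay below 0, where Ucp1 had 2.55, 2.25 and 1.34 (Adipoq mean 0.24 ± 0.61, adjusted p = 0.378). In contrast, Lgals12 of the same list was above 0 in every mouse, from 0.51 in mouse 2 to 1.10 in mouse 4. Its mean was 0.83 ± 0.25 (adjusted p = 0.000571, limma), and it was named after its values were seen. The insulin-responsive glucose transporter Slc2a4 of fat and muscle averaged 0.047 ± 0.26 (adjusted p = 0.716) and the hormone leptin, Lep, −0.028 ± 0.043 (adjusted p = 0.637). The fatty acid binding protein Fabp4 had 0.46 in mouse 4 and 0 in mouse 5 and no other value, and resistin, Retn, had 0.28 in mouse 1 alone. Of the white fat list, 2 of 8 genes were measured: Lep, and Tcf21, a factor also of lung mesenchyme, at 0.93 ± 0.34 (adjusted p = 0.000981).

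Among relatives of Cidea, Cidec, which enlarges lipid droplets in white fat, had ratios of 0.95, 0.07, 0.70, 0.85 and 0.46 in mice 1 to 5. All were above 0, with mouse 2 lowest (mean 0.61 ± 0.35, adjusted p = 0.00696). Cideb, the liver relative, had values in 3 mice, −0.15, 0.08 and −0.04 in mice 1, 2 and 4. Of 10 measured CIDE and lipid droplet genes, 2 were past the threshold below 0, 3 above and 5 were not past it, at a median of 0.094 (50% of the list beside 49.6% of all genes). Abhd5, the activator of triglyceride lipase, averaged 1.04 ± 0.19 on 4 arrays (adjusted p = 0.00029) and the droplet coat protein Plin3 0.58 ± 0.24 (adjusted p = 0.002). Plin2, the coat protein of droplets in most cells, averaged −1.94 ± 0.29 (adjusted p = 3.38e-05), with each mouse at −1.63 or lower, on the other side of 0 from Cidea. Dffa, an inhibitor of the apoptotic nuclease and a bearer of the CIDE domain, averaged −0.32 ± 0.09 (adjusted p = 0.00279). Plin2 and Abhd5 were also past the pool-spread test.

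Enzymes that make and burn fatty acids, which brown fat does at high rates and lung epithelium does for surfactant, are next. Of 10 genes of fatty acid synthesis, 8 were past the threshold above 0 and 0 below, at a median of 0.76. That is 80% of the list, beside 25.8% of all genes above 0 and 49.6% on either side of 0. The desaturases Scd1 and Scd2 averaged 1.79 ± 0.50 (adjusted p = 0.000284) and 1.43 ± 0.45 (adjusted p = 0.000476), and fatty acid synthase, Fasn, 1.50 ± 0.19 (adjusted p = 2.88e-05). In the pool-spread test, 2 of them, Fasn and the acyltransferase Gpam, passed; Gpam was named after its values were seen. Of 20 genes of fatty acid oxidation, 9 were above 0, 1 below and 10 were not past the threshold, at a median of 0.24. The share past it was 50% of the list, beside 49.6% of all genes (25.8% above 0 and 23.9% below). The medium-chain dehydrogenase Acadm averaged 1.57 ± 0.33 (adjusted p = 0.000105), the dehydrogenase Hadh 1.55 ± 0.60 (adjusted p = 0.00109), the carnitine acetyltransferase Crat 0.69 ± 0.27 (adjusted p = 0.00149) and the isomerase Eci2 −0.95 ± 0.39 (adjusted p = 0.00155). Of these, Acadm passed the pool-spread test.

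Of the closest relatives of Ucp1, Ucp3 of muscle had no value on any array and Ucp2 was not analysed here. Of 8 measured mitochondrial carriers, the family to which Ucp1 belongs, 3 were past the threshold above 0 and 0 below, with a median of 0.29. That is 37.5% of the list, beside 25.8% of all genes above 0 and 49.6% on either side of 0. The 3 were the phosphate carrier Slc25a3 at 0.58 ± 0.325 (adjusted p = 0.00633), the oxoglutarate carrier Slc25a11 at 0.53 ± 0.17 (adjusted p = 0.00125) and the brain uncoupling protein Slc25a27 at 0.51 ± 0.22 (adjusted p = 0.00261). The other brain uncoupling protein, Slc25a14, averaged −0.11 ± 0.26 (adjusted p = 0.366); it was named after its values were seen. None of the 3 above 0 passed the pool-spread test (adjusted p = 0.307, 0.153 and 0.215).

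Noradrenaline and thyroid hormone switch on Ucp1 in brown fat through protein kinase A and thyroid hormone receptors. Of 7 measured genes of that input, 3 were past the threshold below 0, 2 above and 2 were not past it, at a median of −0.22 (71.4% of the list beside 49.6% of all genes), and 3 were past it without mouse 3. The kinase's catalytic subunit Prkaca averaged −0.52 ± 0.17 (adjusted p = 0.00126) and its regulatory subunit Prkar1a −0.49 ± 0.20 (adjusted p = 0.00253). The transcription factors Atf2 and Creb1, which the pathway acts on, averaged 0.61 ± 0.14 (adjusted p = 0.000444) and 0.30 ± 0.19 (adjusted p = 0.017, but 0.0575 without mouse 3). The thyroid hormone receptor Thrb averaged −0.16 ± 0.09 (adjusted p = 0.0456, but from 0.0723 to 0.127 without any 1 mouse). In the pool-spread test 0 of the 7 passed.

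Skeletal muscle genes, many of which varied between mice in the order of Cox8b, lay below 0 or were not past the threshold. Of 23 measured, 16 were past the threshold below 0, 0 above and 7 were not past it, at a median of −1.30. The 16 are 69.6% of the list, beside 23.9% of all genes below 0 and 49.6% on either side of 0. The count was 7 without mouse 2, 8 without mouse 5 and 3 with the plain one-sample test, and 0 in the pool-spread test. The list's median log2 ratio was −2.71, −1.39, −0.18, −0.28 and −1.34 in mice 1 to 5, and Cox8b had −1.91, −0.57, 1.16, 1.22 and −0.04. Both were lowest in mouse 1 and highest in mice 3 and 4. Fast troponin C, Tnnc2, had −5.50, −5.19, −0.04, −2.78 and −5.18 (mean −3.74 ± 2.34, adjusted p = 0.00739, but 0.0567 with the plain test).

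Of the 19 skeletal muscle genes with values on all arrays, 16 had their lowest ratio in mouse 1 and their highest in mouse 3 or 4, the order of Cox8b. The same held for 5 of 10 cardiac genes, 4 of 9 CIDE and lipid droplet genes, 6 of 14 oxidase genes, 7 of 18 fatty acid oxidation genes, 7 of 19 adipocyte genes and 4 of 13 brown and beige fat genes. It held for 1 of 7 carriers, 1 of 7 adrenergic and thyroid input genes, 0 of 9 fatty acid synthesis genes, 0 of 2 white fat genes and 0 of 10 lung genes, and for 1331 of 8210 genes and unnamed features (16.2%). This order was picked from Cox8b after its values were seen, and the counts carry no test. Besides Cox8b, 21 genes and unnamed features had a spread at least as wide, and 11 of them were on the skeletal muscle list. Ucp1 and Cidea did not share the order, since both were highest in mouse 1. The part of muscle RNA in the Cox8b values was not tested, and ratios give no level of any marker.

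Heart genes past the threshold were, with 1 exception, above 0. Of 14 measured, 7 were past the threshold above 0, 1 below and 6 were not past it, at a median of 0.28. The share past it was 57.1% of the list, beside 49.6% of all genes (25.8% above 0 and 23.9% below). The atrial myosin chain Myh6 had 1.96, 1.47, 1.88, 1.86 and 2.55 in mice 1 to 5. All mice were close to the range of Ucp1, but mouse 5 was highest where Ucp1 was lowest (Myh6 mean 1.94 ± 0.39, adjusted p = 7.92e-05, also past the pool-spread test). The atrial light chain Myl4 averaged 1.57 ± 0.46 (adjusted p = 0.000361), the cardiac actin Actc1 1.55 ± 0.60 on 4 arrays (adjusted p = 0.00212) and the natriuretic peptide Nppb −1.31 ± 0.50 (adjusted p = 0.00105). The part of heart RNA in these ratios was not tested. Of 10 measured lung genes, 6 were past the threshold above 0, 1 below and 3 were not past it, at a median of 0.76. The share past it was 70% of the list, beside 49.6% of all genes (25.8% above 0 and 23.9% below). Surfactant protein A, Sftpa1, stood at 2.41 ± 0.30 (adjusted p = 2.33e-05), and the ciliated cell factor Foxj1 at −0.32 ± 0.09 (adjusted p = 0.00276). Not past the threshold were the surfactant genes Sftpc at −0.27 ± 1.235 and Sftpd at 0.14 ± 0.41, and Aqp5 at −0.075 ± 0.13. The receptor Ager of type 1 cells averaged 1.46 ± 0.60 (adjusted p = 0.00131) and the junction gene Cldn18 1.43 ± 0.40 (adjusted p = 0.000311). Another Cldn18 feature, left out because it had values on 3 arrays only, averaged −0.13.

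**Figure D4:**
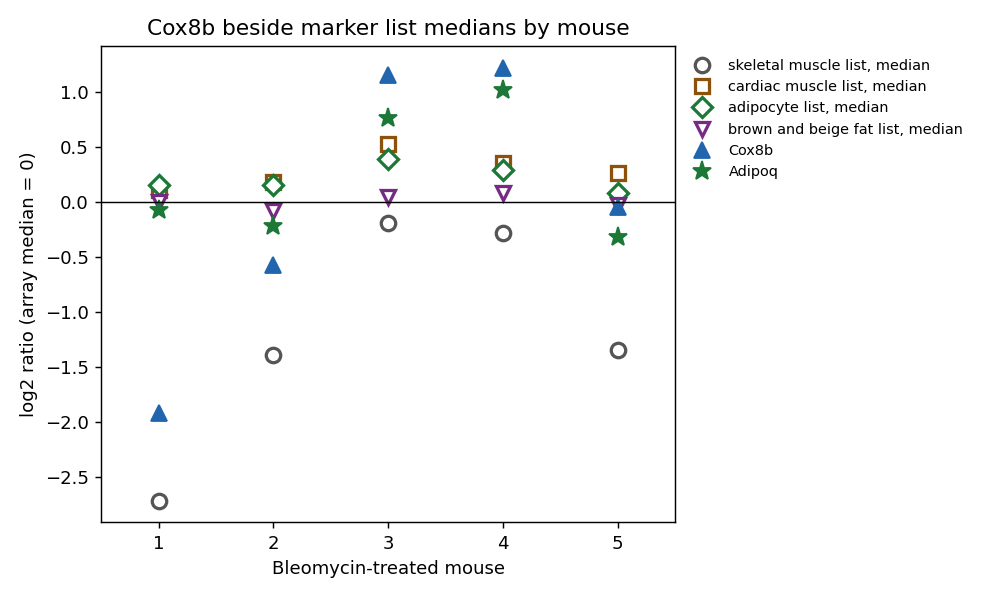
Log2 ratio of Cox8b (blue triangles) and Adipoq (green stars) in each mouse, beside the median log2 ratio of the skeletal muscle, cardiac muscle, adipocyte and brown and beige fat lists (open symbols; vertical axis, array median at 0). The skeletal muscle median and Cox8b are both lowest in mouse 1, at −2.71 and −1.91, and highest in mice 3 and 4, while the brown and beige fat median stays between −0.08 and 0.09.

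Genes with ratios most like these were sought among 7434 others with a value on all 5 arrays, by the root mean square (RMS) difference of log2 ratios over the mice. Nearest to Ucp1 were App, the amyloid precursor protein, at an RMS difference of 0.20, glutathione reductase, Gsr, at 0.25, beta-catenin, Ctnnb1, at 0.30, the selenoprotein factor relative Secisbp2l at 0.33 and the transcription factor Klf15 at 0.34. App had 2.25, 2.55, 2.02, 1.69 and 1.43 in mice 1 to 5, with mouse 5 lowest as for Ucp1 but mouse 2 highest. Nearest to Cidea were the flippase Atp9b (0.042), the matrix protein Tinag (0.052), the tektin Tekt2 (0.072), Zfand6 (0.10) and the ubiquitin ligase Rnf145 (0.12).

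Nearest to Cox8b were Ldb3, a protein of the muscle Z-disc, at an RMS difference of 0.38, Cox7a1 at 0.58, the RNA-binding protein Igf2bp1 at 0.61, triadin, Trdn, of the muscle calcium release complex, at 0.64 and the glycolytic enzyme Gapdh at 0.64. Ldb3 had −1.34, −0.91, 1.06, 0.68 and −0.04 in mice 1 to 5, with mouse 1 lowest and mouse 3 highest. No gene came as close to Cox8b as all 5 neighbours came to Ucp1 or to Cidea. Cox8b also varied most between mice (SD 1.305, beside 0.477 for Ucp1 and 0.161 for Cidea). RMS differences tend to be larger for a gene that varies more, so nothing is read from the larger distances. The mean profile of Ucp1, Cidea and Cox8b was 0.62, 0.87, 1.44, 1.30 and 0.69 in mice 1 to 5. It was lowest in mouse 1, where Ucp1 and Cidea were highest, so closeness to it is not closeness to either gene. Nearest to it were the steroid receptor cochaperone Fkbp5 (0.12), the peroxisomal import receptor Pex5 (0.13), the clock repressor Nr1d1 (0.16), Car3 (0.16), Hmgb2 (0.17), Akr1c6 (0.17), Pan3 (0.17), Suds3 (0.18), Stat6 (0.19) and Pgrmc2 (0.19).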

How the data were processed

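Deposited log2 ratios of 5 arrays of 2 colours were used, 1 per feature and array; how the authors normalized them, the dyes, the scanner and the log base are not stated in the labels, and per the labels channel 1 held the mouse and channel 2 the pool. The deposited medians lay between 0.011 and 0.026, and every column was shifted to a median of 0. Symbols came from GEO's platform annotation (1 symbol for 14722 features, several for 1, none for 2557) and were updated by gene identifier for 14445 features with RefSeq (GRCm38.p6). Features with values on at least 4 arrays were kept (10702) and averaged by symbol; Ucp1, Cidea and Cox8b have 1 feature each. The test of each mean against 0 used limma (version 3.58.1, R version 4.3.3, intercept-only model, empirical Bayes, two-sided, Benjamini-Hochberg over 10081). The procedure was also run on simulated arrays that shared no error of a common pool, so that run does not cover such error. Labels do not exclude technical replication, and p-values measure the spread between these samples. The number of arrays limits precision, and signal over background is unknown.

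Named genes were Ucp1, Cidea and Cox8b, a fixed set of their relatives and fat cell genes, and the nearest by RMS difference. For each list and side of 0, the 3 genes with the most extreme mean of those that passed were named too. Tfam, Lgals12, Gpam, Slc25a14, Sftpc, Sftpd and Aqp5 were named after their values were seen. All genes and lists were chosen with earlier results of these data known. Alternatives were centring, array spread, missing values, choice of feature, test, pool and leaving out each mouse. Plots used matplotlib 3.10.9 in Python 3.11.15.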

Additional observations from a re-analysis of the deposited data

Results flagged for a closer look

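Of 84 named genes checked for a single mouse far from the others, 2 were found, where chance alone marks about 5% of groups. Nppb, a natriuretic peptide, stood at −2.17 in mouse 2 against −1.22 in the next lowest mouse. Thrb, a thyroid hormone receptor, stood at −0.31 in mouse 4 against −0.16 in the next lowest. Ucp1, Cidea and Cox8b had no such mouse.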

How the results depend on the processing

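The mean of Ucp1 lay between 1.84 and 2.14 and that of Cidea between 0.94 and 1.05 without any 1 mouse, while that of Cox8b lay between −0.34 and 0.44. No mean of a named gene past the threshold changed its side of 0 in any alternative run. With at least a 1.2-fold difference required, 1847 genes were past the threshold, against 5002 without, and so were 4 brown and beige fat, 4 adipocyte, 5 fatty acid oxidation, 1 carrier, 3 CIDE and lipid droplet, 5 oxidase, 2 adrenergic and thyroid input, 6 skeletal muscle and 5 cardiac genes. In the pool-spread test 513 genes were past it in all, with 1 brown and beige fat, 0 adipocyte, 2 fatty acid synthesis, 1 fatty acid oxidation, 0 carrier, 2 CIDE and lipid droplet, 2 oxidase, 0 input, 0 skeletal muscle, 1 cardiac, 0 white fat and 1 lung gene. By the plain one-sample test 4 oxidase and 3 skeletal muscle genes were past it. Leaving out each mouse gave 4113 to 4656 genes in all, 3 to 5 input genes and 7 to 19 skeletal muscle genes. Of 81 named genes tested, 67 were past the threshold, beside 49.6% of all genes. Many of them were named because they passed it, so nothing is read from that count. In every alternative that gave them a value, 33 of the 81 kept their call. Genes not past the threshold could still change their side of 0. Cox7a1, for example, averaged 0.065 with all mice and −0.10 without mouse 3. No paired analysis was possible because all arrays form 1 group. Spread between control mice, dye bias and signal over background are not known from these values.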

Other observations

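Of the 21 genes and unnamed features that varied between mice at least as much as Cox8b, 10 were outside the skeletal muscle list, and 0 were on the cardiac, adipocyte or brown and beige fat lists. They included Lor and Lce1a1, genes of the cornified envelope of skin and oesophagus, at SDs of 2.19 and 2.43, and Myot and Ankrd23, genes of the muscle sarcomere, at SDs of 1.40 and 1.69; these 4 were picked after their values were seen.

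The 2 features of Car3 stood apart in every mouse. One had 1.42, 1.39, 2.32, 2.46 and 1.34 in mice 1 to 5 and the other −0.49, −0.18, 0.23, −0.001 and −0.16. Mice 3 and 4 had the highest values of both.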
